A study of Mus musculus with 5 samples.

Results

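The genes described here are 10 members of the Notch pathway in mouse muscle stem cells (MuSCs): the ligands Dll1, Jag1 and Jag2, the receptors Notch1, Notch2 and Notch3, the nuclear effector Rbpj, and the target genes Hes1, Hey1 and Heyl. They were taken from a list of names, and every JunB or H3K27ac peak within 50 kb of an annotated transcription start site (TSS) of one of them was assigned to it, with 3 kb separating promoter peaks from distal ones. They are 10 of 21938 protein-coding genes of the annotation, and all 10 had at least 1 JunB peak and 1 H3K27ac peak in their windows. Of 18879 JunB regions on the autosomes and sex chromosomes, 31 lay near these genes, a region being the stretch covered by overlapping peaks of the JunB libraries.

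The libraries were CUT&RUN-seq, in which an antibody directs a nuclease to cut out the bound DNA, from freshly isolated MuSCs. JunB, a subunit of the dimeric transcription factor AP-1, was mapped in 3 libraries labelled Young (biological replicates 1, 2 and 3) and in 1 labelled Aged, and the acetylated histone H3K27ac, a mark of active promoters and enhancers, was mapped in 1 library with no age label. The methods also tie the H3K27ac data to a human epigenome mapping project, so the origin of that library, on which each overlap rests, is not certain. The labels give neither age in months, strain nor genotype, and the design text of the series names mice treated with DMSO or MVC (Maraviroc), which no sample label repeats. According to the study's methods, MuSCs of young and aged mice were sorted from hindlimb muscle as VCAM+ cells negative for CD45, CD31 and SCA1. The methods also give a GFP+ sort, for MuSCs of control and inducible JunB knockout mice. A peak list describes the whole sorted population, so a larger share of cells with JunB at a site and more JunB per cell cannot be told apart.

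Notch signalling passes between touching cells. A Delta or Jagged ligand on one cell binds a Notch receptor on its neighbour, the receptor is cleaved, and its intracellular part enters the nucleus and joins RBPJ on DNA to switch on genes of the Hes and Hey families, which encode basic helix-loop-helix repressors. In adult muscle this pathway is known for keeping MuSCs quiescent, and loss of Rbpj in these cells leads to their premature differentiation.

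Before the results, 3 features of the lists need stating. The JunB lists differed in length, with 9534, 4884 and 3863 peaks for young replicates 1, 2 and 3 and 14123 for the aged one, and they did not stop at one threshold: the lowest −log10 p was 3.01, 5.33 and 5.22 for the young lists and 3.01 for the aged list. In the portion of the study's supplementary peak sheet read here, peaks headed as young were those of the library labelled Aged by GEO, while many of those headed as aged were identical to peaks of libraries labelled Young, so the age of each library follows the GEO label throughout and was not settled further. The numbers of young and aged libraries in the study's reporting form, and the length it gives for the aged list, are those of the GEO labels. The peak number the form gives for young mice is that of none of the 3 young lists, each of which is shorter. Peak names inside the list of young replicate 1 carry the word gfp, which its label does not explain. Among marker genes of MuSCs, 6 of 10 had an H3K27ac peak within 3 kb (Myod1, Vcam1, Itga7, Cdh15, Chodl and Sdc4) and Pax7, Myf5, Calcr and Cxcr4 did not. For other cell types the counts were 1 of 4 for myofibre, 2 of 4 for endothelial, 1 of 4 for blood, 2 of 4 for fibro-adipogenic, and 2 of 4 for smooth muscle and pericyte markers.

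JunB peaks lay near Notch pathway genes in every library. Of the 31 regions, 27 lay beyond 3 kb from a TSS of the gene and 4 (12.9%) within it, where the 3 kb windows make up 12.3% of the windows searched. Measured from any annotated TSS, 24 of the 31 (77.4%) were farther than 3 kb, against 63.1% of all JunB regions. By midpoint, 13 were in introns, 10 downstream of the gene, 7 upstream and 1 in a coding exon. The member itself was the nearest protein-coding gene for 29 of 31 regions, but for only 20 of 31 was its TSS the nearest of any annotated gene, noncoding genes included.

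**Figure D1:**
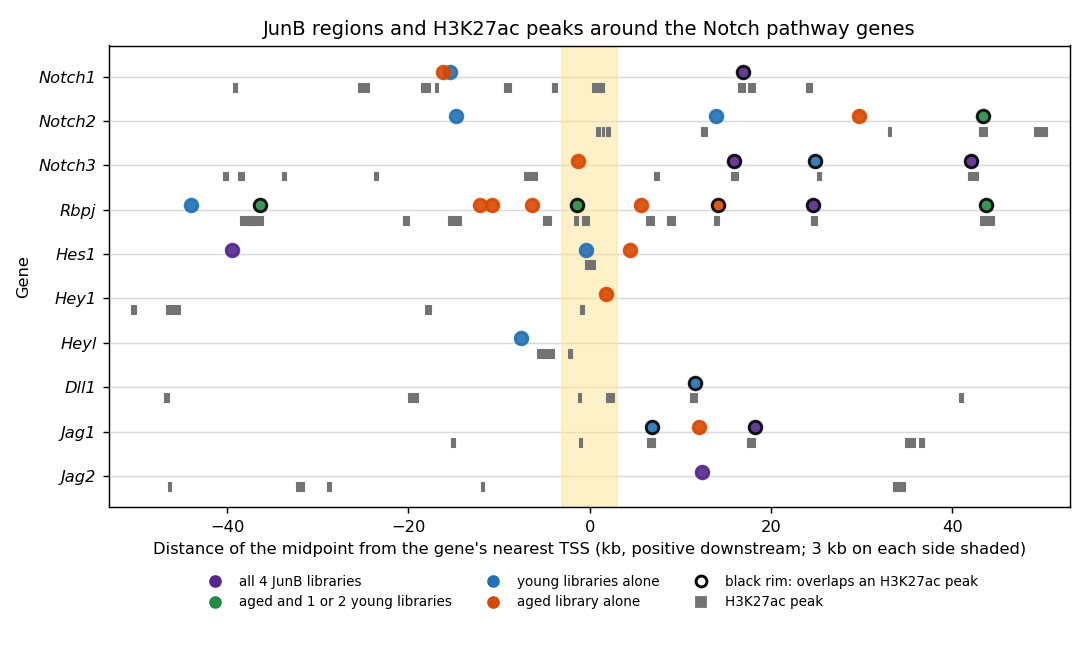
Position of the 31 JunB regions (circles) and 67 H3K27ac peaks (grey boxes, width to scale) by distance of their midpoint from the nearest TSS of each gene, in kb, with positive values downstream and 3 kb on each side shaded. Colour gives the JunB libraries with a peak and a black rim an H3K27ac overlap; 27 of the 31 circles lie outside the 3 kb windows, which are 12.3% of the length searched, and the 7 regions found in all 4 JunB libraries are among the 27.

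Regions found in all 4 JunB libraries are the most reproducible occupancy near these genes, and there were 7, belonging to Notch1, Notch3 (with 2), Rbpj, Hes1, Jag1 and Jag2. Thus 6 of the 10 genes had such a region within 50 kb, against 17.2% of all protein-coding genes. At only 3 of the 7 regions, those of Rbpj, Jag1 and Jag2, was the nearest TSS of any annotated gene that of the member. Sequences of 6 of the 7 are shown as examples of JunB occupancy shared by all libraries within 50 kb of these genes. Each is the plus strand of mm10 (GRCm38.p6), 299 bases centred on the median summit of the 4 JunB libraries. For the nearer Notch3 region (15481 bp) the window lies between the summits and holds none of them. They were at 32117722, 32117715 and 32118026 in young replicates 1, 2 and 3 and at 32118067 in the aged library. Capitals mark a match to the AP-1 letters TGACTCA or the RBPJ letters GTGGGAA on either strand.
Notch3, 41749 bp, chr17:32091569-32091867: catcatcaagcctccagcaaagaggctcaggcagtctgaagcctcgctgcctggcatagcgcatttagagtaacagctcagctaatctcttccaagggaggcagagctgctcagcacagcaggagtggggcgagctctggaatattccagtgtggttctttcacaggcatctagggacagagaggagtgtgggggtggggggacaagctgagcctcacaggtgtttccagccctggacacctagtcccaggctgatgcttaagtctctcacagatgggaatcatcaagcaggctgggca
Notch1, 16396 bp, chr2:26445603-26445901: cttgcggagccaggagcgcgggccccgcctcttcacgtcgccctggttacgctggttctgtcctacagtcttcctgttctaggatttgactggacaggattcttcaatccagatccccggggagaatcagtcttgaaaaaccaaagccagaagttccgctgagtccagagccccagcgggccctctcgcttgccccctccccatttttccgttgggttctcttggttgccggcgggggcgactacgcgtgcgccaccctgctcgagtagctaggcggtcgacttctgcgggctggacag
Jag1, 17872 bp, chr2:137067684-137067982: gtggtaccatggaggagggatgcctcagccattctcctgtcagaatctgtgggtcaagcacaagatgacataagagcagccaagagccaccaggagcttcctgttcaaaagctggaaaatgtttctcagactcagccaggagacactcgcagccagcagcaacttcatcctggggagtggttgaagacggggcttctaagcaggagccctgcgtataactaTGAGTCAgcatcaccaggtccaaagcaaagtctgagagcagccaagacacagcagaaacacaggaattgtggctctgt
Notch3, 15481 bp, chr17:32117725-32118023: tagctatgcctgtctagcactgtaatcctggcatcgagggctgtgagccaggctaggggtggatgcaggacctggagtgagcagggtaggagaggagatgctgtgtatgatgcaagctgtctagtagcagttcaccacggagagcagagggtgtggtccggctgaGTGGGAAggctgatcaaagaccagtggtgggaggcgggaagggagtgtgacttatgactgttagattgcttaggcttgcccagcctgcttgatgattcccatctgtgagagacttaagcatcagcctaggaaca
Rbpj, 24386 bp, chr5:53490784-53491082: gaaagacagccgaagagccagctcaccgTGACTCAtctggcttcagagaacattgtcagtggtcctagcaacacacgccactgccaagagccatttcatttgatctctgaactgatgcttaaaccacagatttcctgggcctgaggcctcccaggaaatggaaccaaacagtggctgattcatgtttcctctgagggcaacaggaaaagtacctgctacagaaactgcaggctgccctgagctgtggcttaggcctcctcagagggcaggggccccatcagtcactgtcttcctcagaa
Jag2, 12107 bp, chr12:112897925-112898223: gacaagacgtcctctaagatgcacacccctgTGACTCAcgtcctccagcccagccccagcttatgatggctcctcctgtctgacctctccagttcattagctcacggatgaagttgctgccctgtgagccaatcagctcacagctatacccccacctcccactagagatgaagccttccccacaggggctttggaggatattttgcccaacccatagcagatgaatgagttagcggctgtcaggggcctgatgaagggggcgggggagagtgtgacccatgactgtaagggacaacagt
In these windows the regions of Jag1, Rbpj and Jag2 held 1 AP-1 match each, the nearer Notch3 region held 1 RBPJ match, and the remaining 2 held neither. Measured from the median summit, the AP-1 matches lay at 72, -121 and -118 bases for Jag1, Rbpj and Jag2. From the summit of the aged library alone, those of Jag1 and Jag2 lay at 43 and -50 bases. The longest identical stretch shared by the pair of Notch3 regions was 143 bp, in opposite orientation (chr17:32091874-32092016 and chr17:32117817-32117959). In 20 of the 21 pairings of the 7 regions the longest shared stretch was 15 bp or less. Outside the 143 bp, the last bases printed for the farther Notch3 region recur, in opposite orientation, near the end of the nearer one. The study's reporting form counts uniquely mapping reads but does not say whether only these entered the peaks. The part of the repeated letters in both Notch3 regions was not tested.

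Among the ligands, Jag1 and Jag2, transmembrane ligands of the Jagged family, each had 1 region found in every JunB library, and Dll1, a Delta-type ligand, had none. The Jag1 region (chr2:137067416-137068077, downstream of the gene) had a fold enrichment over local background of 6.14, 8.02 and 11.0 for young replicates 1, 2 and 3 and of 6.43 for the aged one, and it overlapped an H3K27ac peak. The aged value lay inside the range of the young ones. The Jag2 region (chr12:112897737-112898261, downstream) had 7.35, 7.85 and 6.03 in the young replicates, against 7.48 in the aged, again inside the young range, and carried no H3K27ac peak. Jag1 had 2 further regions, a young replicate 1 region 6656 bp from a TSS within the gene with a fold enrichment of 6.23, which overlapped H3K27ac, and an aged one at 11940 bp with 3.58, which did not. Dll1 had a single region, in young replicate 1 alone, 11482 bp from a TSS within the gene (chr17:15356557-15356908) with a fold enrichment of 4.15 and an H3K27ac peak over it. No JunB peak of any library fell within 3 kb of a TSS of Dll1, Jag1 or Jag2.

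Among the receptors, Notch3 was assigned, by distance, the region with the strongest JunB peak near the 10 genes in every JunB library. The distal Notch3 region at chr17:32091293-32092016 had a fold enrichment of 20.3, 17.3 and 22.1 in the young replicates, against 16.4 in the aged one, with −log10 p of 107, 74.0, 81.0 and 48.2. It ranked at the 98.7th, 95.9th and 98.2nd percentile of all peaks of the young lists and at the 99.4th of the aged list. It spans the TSS of the pseudogene Pdxk-ps, 41749 bp from the nearest TSS of Notch3, and its nearest protein-coding TSS is that of Rrp1b, a nucleolar protein gene, at 32125 bp. A nearer Notch3 region (chr17:32117482-32118284, 15481 bp from a TSS and 2536 bp past the end of the gene) had 7.96, 7.34 and 7.48 in the young replicates, against 6.21 in the aged. The TSS of the annotated gene Gm17276 lies closer to it, at 3735 bp. Both Notch3 regions overlapped H3K27ac peaks, and at both the aged value was the lowest of the 4. In the nearer region the summits of the 4 libraries spanned 352 bp, so its values are not of one position.

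Notch1, a receptor present on quiescent MuSCs, had a region in all 4 libraries at chr2:26445279-26446351 with fold enrichments of 12.3, 12.1 and 10.04 in the young replicates, then 8.43 in the library labelled Aged, and with H3K27ac. It lies 11552 bp past the end of the gene and spans the TSS of 0610009E02Rik, 63 bp from the TSS of Sec16a, a gene of the secretory pathway, so its assignment to Notch1 rests on the distance rule alone. Upstream of Notch1 the libraries differed: a region 15175 bp upstream (chr2:26531838-26532353) had a peak in each young library, with 5.30, 8.82 and 8.68, and none in the aged library. The aged library instead had a peak 16060 bp upstream (chr2:26532723-26533027) with a fold enrichment of 5.97, and neither overlapped H3K27ac. Notch2 had 4 regions and none in young replicate 3. Its strongest by −log10 p, in an intron at chr3:98056560-98057337, had 10.7 in young replicate 1, 5.01 in young replicate 2, and the aged library had 7.32, and overlapped H3K27ac. The summits of these libraries spanned 350 bp in that region.

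Rbpj, which encodes the DNA-binding protein through which Notch receptors act, had the most JunB peaks of the 10 genes in the aged library and in young replicate 1, and as many as Notch1 and Notch3 in young replicates 2 and 3. There were 5, 2 and 2 in the young replicates and 9 in the aged library, in 10 regions, of which 8 were intronic. Its window is also wide, at 280 kb of the 1334 kb covered by all 10, because 12 TSSs are annotated for it. The region found in all 4 libraries (chr5:53490538-53491133, intronic, 24386 bp from a TSS) had 9.88, 11.3 and 7.39 in the young replicates, against 7.88 in the aged one, and overlapped H3K27ac. At chr5:53429314-53430286, 35866 bp upstream, young replicates 1 and 3 and then the aged library had peaks of 5.88, 5.94 and 7.09, again over H3K27ac. The summits there spanned 520 bp, with that of young replicate 1 apart from those of young replicate 3 and the aged library. Rbpj was also the single member whose promoter window held JunB in more than 1 library: at chr5:53588688-53588981, 1233 bp from a TSS that lies within the gene, the fold enrichment was 7.89 in young replicate 1, 6.10 in young replicate 2, and in the aged one 4.59, with H3K27ac over the region. The aged library alone held 5 of the Rbpj regions, with fold enrichments of 4.04 to 6.53, of which 1 overlapped H3K27ac.

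Of the target genes, Hes1 and Hey1 each had a promoter peak in 1 library and Heyl had none. Hes1, the classical Notch target, had its region shared by all 4 libraries 39178 bp upstream (chr16:30024600-30025206), with 8.91, 10.7 and 5.60 in the young replicates, against 6.43 in the aged, and without H3K27ac. The TSS of the annotated gene 9030404E10Rik lies closer to that region, at 14273 bp. At the Hes1 promoter, 230 bp from a TSS (chr16:30064732-30065110), only young replicate 1 had a peak, with a fold enrichment of 3.32 and a −log10 p of 3.96, which is below the lowest value listed for young replicates 2 and 3. An aged peak lay 4272 bp from a Hes1 TSS (chr16:30070610-30070939) with 7.94. Hey1 had 1 region, in the aged library alone, in a coding exon 1623 bp from a TSS that lies within the gene (chr3:8664717-8665002), with 4.67. Heyl had 1 region as well, 7424 bp upstream (chr4:123225819-123226132), with 6.55 and 6.02 in young replicates 1 and 2 and no peak in the other two JunB libraries. None of these regions of Hes1, Hey1 and Heyl overlapped an H3K27ac peak.

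**Figure D2:**
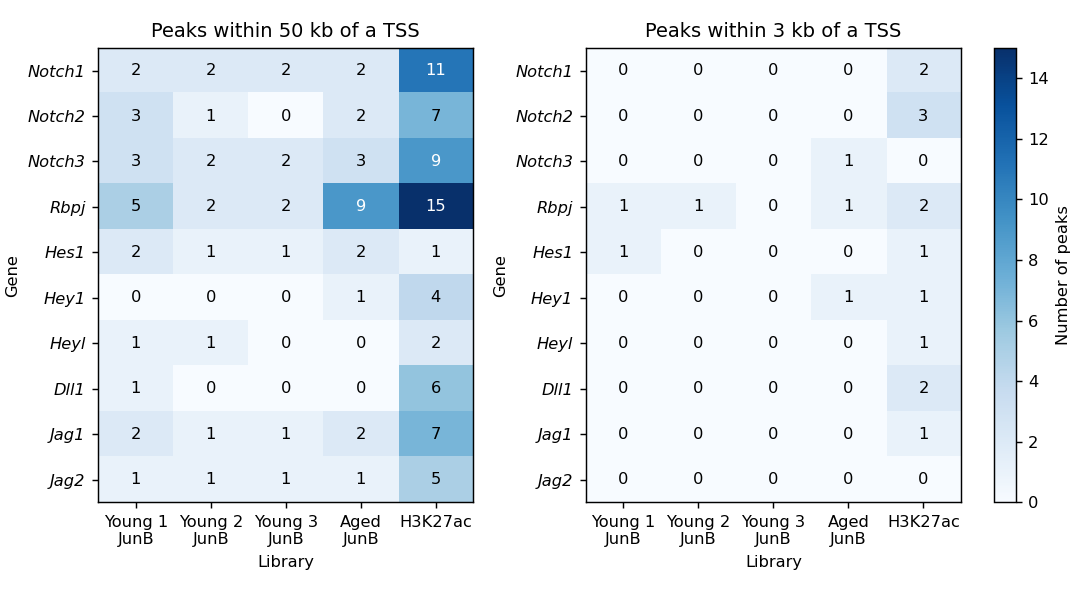
Number of peaks within 50 kb (left) and within 3 kb (right) of a TSS of each gene in the 5 libraries; each cell prints its count. Rbpj has the most aged JunB and H3K27ac peaks within 50 kb (9 and 15), and within 3 kb no gene has more than 1 JunB peak in any library.

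At promoters the counts were small and are read beside those of all protein-coding genes. Within 3 kb, 2 of the 10 genes (Rbpj and Hes1) had a JunB peak in young replicate 1 against 11.0% of all protein-coding genes, 1 (Rbpj) in young replicate 2 against 7.74%, and 0 in young replicate 3 against 5.91%. In the aged library there were 3 (Notch3, Rbpj and Hey1) against 23.9%. In at least 1 young library there were 2 against 12.7%, in any JunB library 4 against 25.8%, and in every JunB library 0 against 4.36%. The Notch3 promoter region (chr17:32138953-32139197, 1128 bp from a TSS within the gene) was an aged peak with a fold enrichment of 3.63 and no H3K27ac. An H3K27ac peak within 3 kb was present at 8 of the 10 genes, Notch3 and Jag2 being the exceptions, against 49.8% of all protein-coding genes. Of the 13 H3K27ac peaks in these promoter windows, 1 (at Rbpj) overlapped a JunB region, against 27.8% of those within 3 kb of any protein-coding gene. The 95% exact binomial interval for 1 of 13 was 0.19 to 36.0%, which holds 27.8%.

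Within 50 kb, peaks were more frequent around these genes than around protein-coding genes as a whole. In young replicates 1, 2 and 3, 9, 8 and 6 of the 10 genes had a JunB peak, against 40.4%, 27.5% and 23.4% of all protein-coding genes. In the aged library 8 had one, against 58.4%. In any JunB library all 10 did, against 64.5%, and all 10 had an H3K27ac peak, against 76.6%. Per Mb of window, the members held 14.99, 8.25 and 6.75 JunB peaks in the young lists, then 16.5 in the aged list, where the windows of all protein-coding genes held 4.81, 2.74, 2.16 and 7.87. H3K27ac peaks were denser there too, at 50.2 per Mb against 22.0, and the genes had a median of 4 annotated TSSs against 3; the part of either in the JunB counts was not tested. With windows of 3 kb the JunB densities were 12.2, 6.10, 0 and 18.3 per Mb against 9.48, 6.31, 4.78 and 20.4, resting on 2, 1, 0 and 3 peaks, and that of H3K27ac was 79.3 against 54.4.

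**Figure D3:**
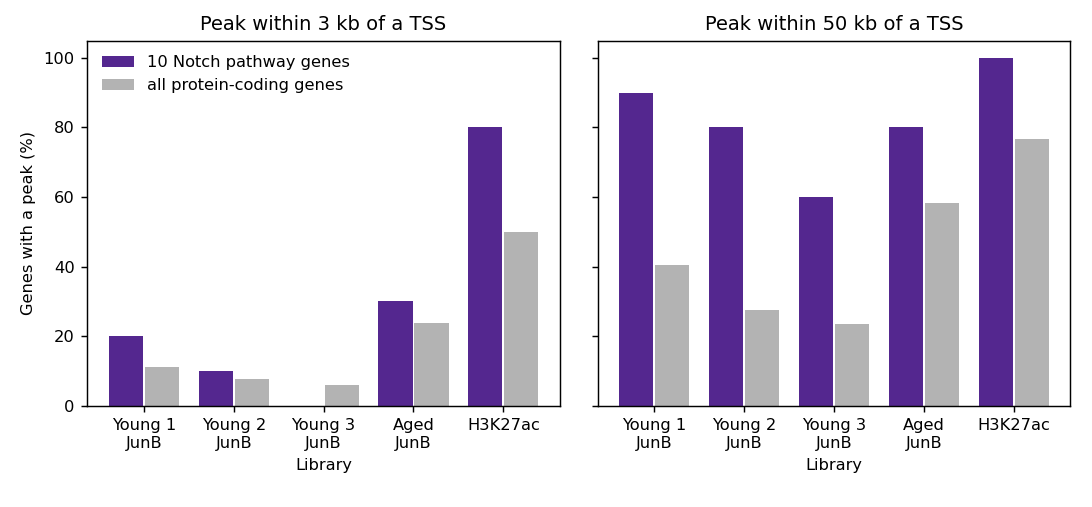
Percent of the 10 Notch pathway genes (purple) and of all 21938 protein-coding genes (grey) with a peak within 3 kb (left) or 50 kb (right) of a TSS in each library. At 3 kb the JunB bars of the Notch genes are at 20%, 10%, 0% and 30% beside 11.0%, 7.74%, 5.91% and 23.9%, and at 50 kb each purple bar is above the grey one.

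The aged library had 22 peaks within 50 kb of these genes and the young libraries 20, 11 and 9 (13.3 ± 5.86, SD, n = 3). No test between ages was run, since 3 young against 1 aged library allow an exact permutation p no smaller than 0.25. The whole aged list was also longer, 14123 peaks against 6094 ± 3023 (SD, n = 3), and when each list was reduced to its 3863 strongest peaks the counts were 13, 9 and 9 in the young replicates, against 11 in the aged, which lies within the young range. In those equal lists 1 gene in young replicate 1 and 0 in each of the others had a JunB peak within 3 kb.

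All 11 peaks of young replicate 2 and all 9 of young replicate 3 near these genes overlapped a peak of young replicate 1, where 84.2% and 85.7% of the whole lists did. Of the 22 aged peaks, 11, 9 and 8 overlapped a peak of young replicates 1, 2 and 3, where over the whole aged list 35.7%, 26.1% and 21.1% did. Of the 31 regions, 18 were in 1 library, 2 in 2, 4 in 3 and 7 in all 4, that is 58.1%, 6.45%, 12.9% and 22.6%, beside 65.8%, 12.7%, 8.51% and 13.1% of all JunB regions. The regions in 1 library were 11 of the aged (35.5%, where 8496 of all 18879 JunB regions were) and 7 of young replicate 1 (22.6%, against 18.3%). In all, 9 regions had young peaks and no aged one (29.0%, against 25.8%), and 11 had both. Of the 11 in the aged library alone, 5 were at Rbpj and 1 each at Notch1, Notch2, Notch3, Hes1, Hey1 and Jag1.

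**Figure D4:**
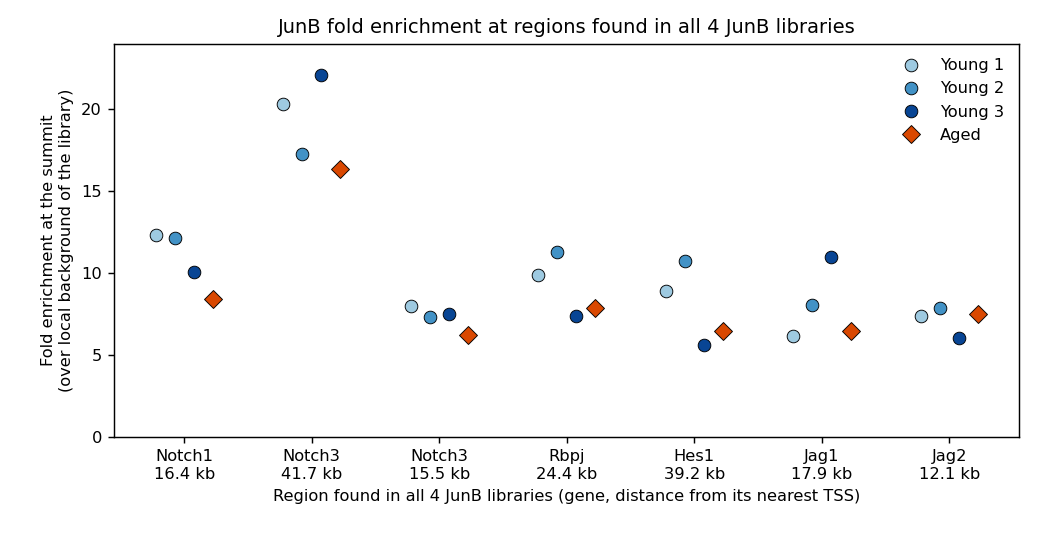
Fold enrichment over local background in the 4 JunB libraries (circles young, diamonds aged) at the 7 regions found in all of them, labelled by gene and distance from its nearest TSS. Each symbol is 1 library, at its own summit within the region. The Notch3 region 41.7 kb away stands highest, at 16.4 to 22.1, and the aged symbol is the lowest of its 4 at Notch1 and both Notch3 regions.

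In the 7 shared regions the aged fold enrichment was below every young value at 3 (Notch1 and both Notch3 regions) and above every young value at 0. Over all 2468 regions found in the 4 JunB libraries it was below every young value at 62.7% and above at 8.27%. The lists were called separately, so their fold enrichments are not scaled to each other. The median fold enrichment of the peaks near these genes was 6.39, 8.02, 7.48 and 6.09 for young replicates 1, 2, 3 and then the aged one, against 5.20, 7.74, 8.11 and 4.93 over all peaks. For the shared regions alone the medians were 8.91, 10.7, 7.48 and 7.48 near these genes and 9.14, 9.34, 9.06 and 7.25 over all. Summits of the 4 libraries lay within a median of 75 bp of each other in the 7 regions and 88 bp in all 2468. Among the 7 this range ran from 53 bp at the farther Notch3 region to 352 bp at the nearer one, with 189 bp at Hes1.

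H3K27ac overlapped 13 of the 31 JunB regions, or 41.9% (95% exact binomial interval 24.5 to 60.9), beside 42.6% of all JunB regions. Away from any TSS (over 3 kb) it was 9 of 24, 37.5%, against 32.0%. By number of libraries, it was 5 of the 7 in all 4 (71.4%, against 69.9% of all such regions), and 4 of 18 in a single library (22.2%, against 32.3%). Aged regions found in no other library overlapped it at 1 of 11, in Rbpj, an interval of 0.23 to 41.3% that holds the 36.0% of all such regions. Those of young replicate 1 alone did at 3 of 7, against 22.3%.

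Of 67 H3K27ac peaks within 50 kb, 13 (19.4%) overlapped a JunB region, against 20.1% of all H3K27ac peaks. By gene there were 15 at Rbpj, 11 at Notch1, 9 at Notch3, 7 at Notch2 and at Jag1, 6 at Dll1, 5 at Jag2, 4 at Hey1, 2 at Heyl and 1 at Hes1. The strongest was 14235 bp upstream of Rbpj (chr5:53450509-53451917), with a fold enrichment of 6.60 and a −log10 p at the 99.5th percentile of the list, and no JunB region touched it. The one H3K27ac peak of Hes1 (chr16:30065577-30066629) spanned a TSS of the gene, had a fold enrichment of 3.54, and was not touched by the Hes1 promoter peak of JunB.

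AP-1 letters were present at few summits, here as over the whole lists. Within 50 bp of the summit the sequence TGACTCA, on either strand, was present at 0 of 20, 2 of 11 and 1 of 9 peaks of young replicates 1, 2 and 3 and 2 of 22 aged peaks near these genes (0%, 18.2%, 11.1% and 9.09%), and in 5.24%, 5.87%, 7.21% and 3.59% of all peaks of those lists. These were the shared region of Hes1 (young replicates 2 and 3), the intronic Notch2 region (young replicate 2) and the shared regions of Jag1 and Jag2 (aged). Over whole regions the AP-1 letters were in 11 of 31, 35.5%, against 25.2% of all JunB regions, whose median width was 342 bp beside 352 bp for the members. The RBPJ letters were in 4 of 31, 12.9%, against 9.87%, and at no JunB summit of these genes, and 2 of the 4 are copies of one match, inside the stretch repeated in both Notch3 regions. The CRE letters TGACGTCA, bound by AP-1 dimers that contain ATF proteins, were in 0 of 31, against 1.78%. A match is a description of the letters, and no match says only that they are not in the window.

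Other genes of the pathway, 47 in number and covering the remaining ligands, receptors, cofactors, proteases and modifiers, had a JunB peak within 3 kb at 6, 5 and 4 in the young replicates, against 17 in the aged one, or 12.8%, 10.6%, 8.51% and 36.2%, beside the background of 11.0%, 7.74%, 5.91% and 23.9% given above. Those with a peak in every JunB library, which none of the 10 had, included Bhlhe40, a helix-loop-helix repressor, Aph1b, a subunit of the gamma-secretase that cleaves Notch, and Mib2, a ubiquitin ligase of Notch ligands. Within 50 kb the counts were 25, 18 and 17 in the young replicates (53.2%, 38.3% and 36.2%, where all protein-coding genes had 40.4%, 27.5% and 23.4%) and 37 in the aged (78.7%, where they had 58.4%), and 15 of 47 (31.9%) had a region in all 4 JunB libraries, where 6 of the 10 did and 17.2% of all protein-coding genes. H3K27ac was within 3 kb of 35 of the 47.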

How the data were processed

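CUT&RUN-seq libraries from mouse MuSCs were analysed from their deposited peak lists, 3 young and 1 aged for JunB and 1 for H3K27ac. Per the labels and methods, the authors used Bowtie2 for alignment of the trimmed reads to mm10, dropped redundant reads, and ran MACS2 library by library; versions, any control library and whether reads with several matches were kept are not given in the sources used here. The deposited columns used were the fold enrichment (a ratio over local background) and the −log10 p-value and −log10 q-value. The lists hold no read counts, and the one read total in the study's reporting form names no library, so the depth of each is unknown and the number of libraries limits the precision.

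Peaks within 50 kb of any TSS of a member in GENCODE M21 were kept, split at 3 kb. JunB peaks sharing at least 1 bp were merged into regions, and H3K27ac overlap needed 1 bp. A region's value in a library was that of its peak with the highest −log10 p. All 71540 peaks on the autosomes and sex chromosomes ended within their chromosome in GRCm38.p6, the assembly named mm10. The background was the 21938 protein-coding genes on chromosomes 1 to 19, X and Y. Intervals are Clopper-Pearson at 95%, cover counting error only and treat regions as independent. Python 3.11.15 was used, and the interval code was tested on simulated peaks against bedtools. No test between ages was run, with 1 aged library.

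All 10 members were named, and regions were named one by one if they lay within 3 kb, occurred in all 4 JunB libraries or had the member's highest −log10 p; the remainder of the regions of Jag1, Notch1, Rbpj and Hes1 that are described were chosen after their values were seen, as were the strongest H3K27ac peak, the 299-base windows, the peaks per Mb, the whole-region motif search, the shared stretch and the ordering of aged against young fold enrichment. Sequences were limited to 6 regions ordered by their lowest percentile of −log10 p. The members and lists were chosen with earlier results of these data known. Alternatives were other distances, thresholds, equal list lengths, overlap rules, TSS sets and leaving out each young library. Not every other pathway gene that met the naming rule is reported here.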

Additional observations from a re-analysis of the deposited data

How the results depend on the processing

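Of 69 alternative values, 48 stayed within 1.5 times the reported count, or for the H3K27ac percent within its interval. No test was run under any. The rest follow, and the cause of each change was not tested. For the 22 aged peaks near the members, the count was 34 within 100 kb, 11 with lists of 3863 strongest peaks, 5 with 2000, and 14 where the nearest TSS of any gene had to be a member's. The 31 regions became 47, 16, 10 and 20 under the same alternatives. The 7 regions in all JunB libraries became 4 within 20 kb, 2 with the 2000 strongest peaks and 3 by the nearest TSS. Members with an aged promoter peak went from 3 to 0 within 1 kb, with equal lists and with 2000 peaks, and those with a young one from 2 to 1 within 1 kb, at −log10 q of at least 2, at a common −log10 p of 5.33 and with equal lists, and to 0 with 2000. Leaving out each young library gave 1 to 2 such members, with 1 (Rbpj) without young replicate 1, whose peak alone placed JunB at the Hes1 promoter. The H3K27ac overlap rose from 41.9% to 70.0% with the 2000 strongest peaks. No paired analysis was possible because only 1 library was labelled Aged and no result came from a test.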
